A study of Mus musculus with 9 samples.

Results

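Megakaryocytes, which shed platelets, and erythroid cells, which become red blood cells, share a small set of transcription factors that are already transcribed in hematopoietic stem cells (HSCs). The 10 genes described here were the rows of the gene count table with the symbols Gata1, Gata2, Nfe2, Fli1, Gfi1b, Tal1, Zfpm1, Lyl1, Klf1 and Runx1, out of 56748 genes in the table. Each symbol matched 1 row, and each gene passed the filter on low counts in every comparison. They were measured by RNA-seq in 9 bulk libraries of mouse bone marrow HSCs from female C57BL/6 mice, sorted as lineage-negative Sca1+ c-Kit+ CD48- CD150+ cells. The 3 groups were yHSCs from mice of 6 to 10 weeks, and Selp_low and Selp_high paHSCs, the pre-aged HSCs of mice of 14 to 16 months divided by surface P-selectin, with 3 libraries each. No altered genotype and no agent is named for these groups. The paper calls the 3 libraries of a group biological repeats. The sources used here do not state how many mice gave each library, and the spread between replicates may be partly technical. The comparison of the paHSC fractions asked how HSCs of the same age differ by P-selectin, and the comparisons with yHSCs asked how each fraction differs from young cells.

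GATA1 and GATA2 are zinc-finger factors that bind GATA sequences. GATA2 acts in stem and progenitor cells, and GATA1 takes over from it as erythroid and megakaryocytic cells mature, with ZFPM1 (FOG1) as its cofactor. TAL1 and LYL1 are related basic helix-loop-helix factors that bind E-boxes with the same partners. FLI1, an ETS factor, favours the megakaryocytic fate, KLF1, a zinc-finger factor that binds CACCC sequences, favours the erythroid fate, and each restrains the other. NFE2 is the bZIP factor needed for platelet release, GFI1B is a zinc-finger repressor needed for both lineages, and RUNX1 is the Runt factor needed for HSC emergence and for megakaryocyte maturation. A change in these genes in a sorted bulk sample can come from fewer cells of a type or from less RNA per cell, which cannot be told apart here.

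The libraries held 24866975 to 35375310 counts assigned to genes. Genes with a count above 0 numbered 21094 in yHSC library 2, 21755 in Selp_high library 1 and 25192 in Selp_high library 3. The other libraries had 31236 to 34143 such genes, and the part of this difference in the results below was not tested. Selp, the gene of the sort marker, had 20.6, 30.0 and 23.2 CPM (counts over the library total, scaled between libraries with TMM factors) in yHSCs, 109, 29.4 and 93.4 in Selp_low paHSCs and 652, 266 and 265 in Selp_high paHSCs. The second Selp_low library therefore lay within the range of the young cells for this gene. Several libraries held RNA of mature cells: the 10 neutrophil genes summed to 576 to 214236 CPM, the 8 B-cell genes to 81.8 to 106030 CPM, the 7 mast and basophil genes to 40.0 to 302 CPM and the 8 endothelial genes to 19.4 to 187 CPM, led by Ngp, Jchain, Hdc and Plvap. The highest neutrophil sum was in Selp_low library 3, and the highest B-cell sum in Selp_low library 2, which carried 98463 CPM of Jchain. Selp_low library 1 had a B-cell sum of 5545 CPM, above every yHSC and Selp_high library, and Selp_low library 3 had the lowest. The neutrophil sums ran from 12808 to 65118 CPM in yHSCs, 576 to 214236 in Selp_low and 1839 to 41770 in Selp_high paHSCs, and all 10 genes were lower in Selp_high than in Selp_low paHSCs, none of them called by edgeR, while DESeq2 gave no adjusted p for 8 of them. With Selp_low libraries 2 and 3 left out all 10 were higher in Selp_high paHSCs, and the median was 2.06 on the log2 scale. The B-cell sums ran from 164 to 278 CPM in yHSCs, 81.8 to 106030 in Selp_low and 373 to 3673 in Selp_high paHSCs. All 8 B-cell genes were lower in Selp_high than in Selp_low paHSCs, and DESeq2 called 4 of them, against 2.28% of all genes. Of the 10 HSC markers, 9 were higher in Selp_high than in Selp_low paHSCs, the median of the list being 1.52 on the log2 scale, and Ly6a, the most abundant, was lower. In Selp_low paHSCs over yHSCs the medians of the log2 fold changes were -1.08 for the HSC markers, 3.92 for the B-cell genes and 1.72 for the neutrophil genes. Without Selp_low libraries 2 and 3 these medians were -0.44, 3.78 and -2.27, so that of the neutrophil genes turned. None of these genes was at 0 in all 9 libraries. The share of the differences below that moves with these cells was not tested, and for the comparisons that use Selp_low paHSCs, values without Selp_low libraries 2 and 3 are given for those of the 10 genes that the results turn on, for the ratios and for the gene lists. Selp_low library 1, which also carried B-cell RNA, then stands alone, and was taken to vary like the other group.

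Levels of different genes were compared as FPKM, the scaled CPM divided by the gene length in kilobases. Nfe2 was the most abundant of the 10 genes in every group, at 203.8 ± 49.4 FPKM (SD, n = 3) in yHSCs, 156 ± 52.1 in Selp_low paHSCs and 286 ± 96.3 in Selp_high paHSCs. Its libraries did not overlap those of the next gene, Gfi1b, in any group, and it lay at percentile 99.0 of the genes expressed in yHSCs, 97.0 in Selp_low and 99.1 in Selp_high paHSCs. Gfi1b followed with 47.8 ± 11.9, 71.8 ± 9.12 and 121 ± 20.8 FPKM. Runx1, Tal1 and Lyl1 filled the last 3 places in each group, at mean levels of 5.09 to 13.3 FPKM. Klf1 changed place most: it was in place 5 in yHSCs with 38.5 ± 40.4 FPKM, in place 3 in Selp_low paHSCs with 60.5 ± 17.8 FPKM and in place 7 in Selp_high paHSCs with 17.7 ± 6.25 FPKM. Its range overlapped that of its neighbours in the order in each group, so those places are not firm. Gata2 was in place 4 in yHSCs, place 6 in Selp_low paHSCs and place 3 in Selp_high paHSCs. Gata1, Fli1 and Zfpm1 lay between these genes. Apart from Nfe2 and Gfi1b, neighbours in the order overlapped in range, except Gata1 and Runx1 in yHSCs and Gfi1b and Gata2 in Selp_high paHSCs.

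**Figure D1:**
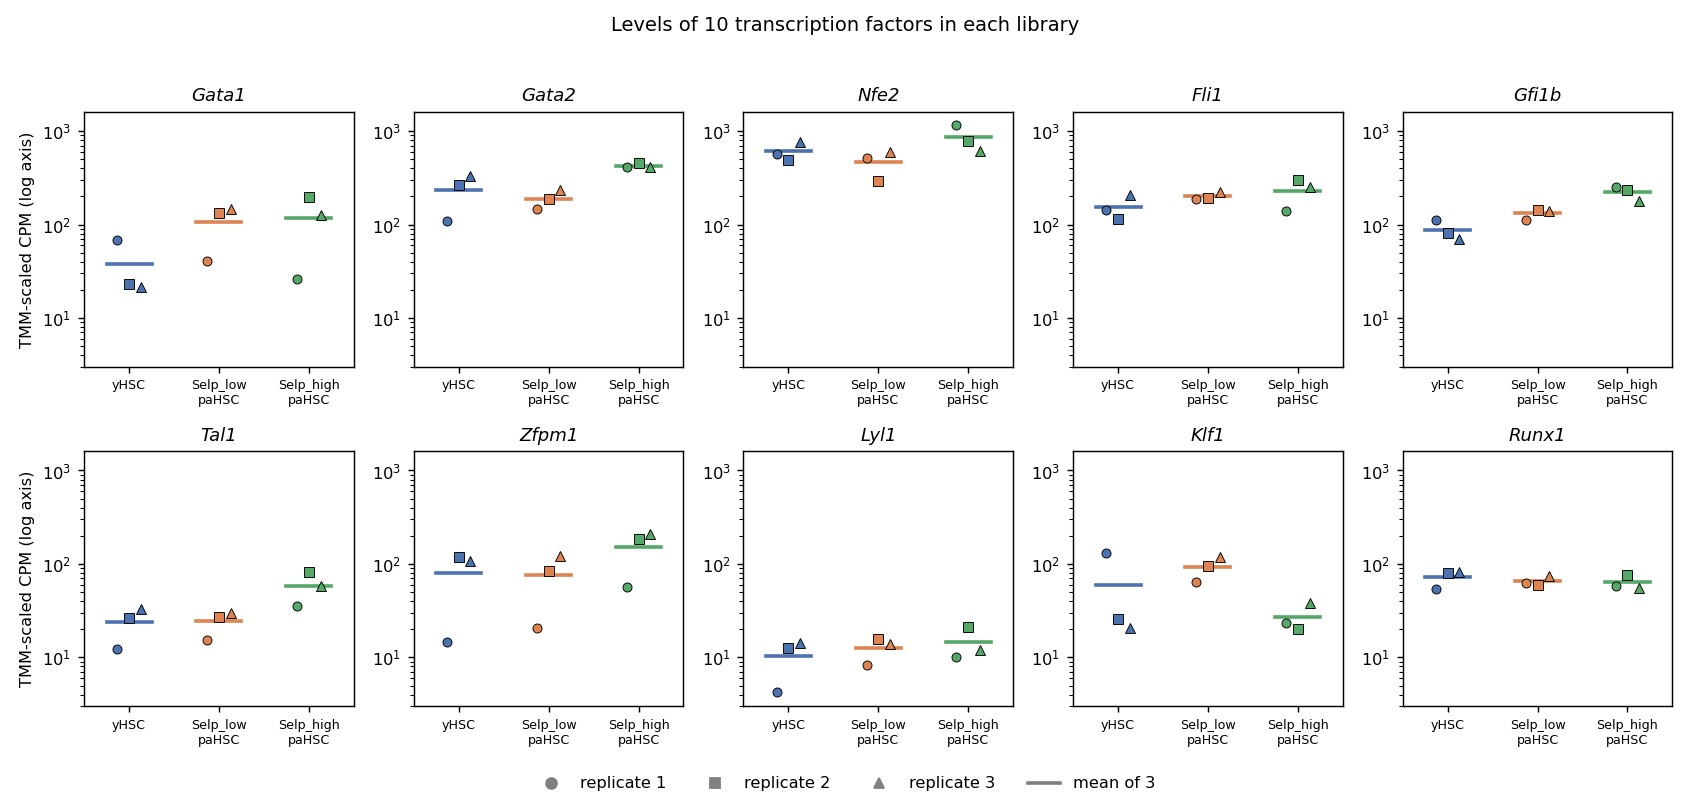
TMM-scaled CPM of the 10 genes in each library, on a log axis, with 1 panel per gene, 1 marker shape per replicate number and a bar at the mean of 3 libraries. All 3 Selp_high libraries lie above all 3 Selp_low libraries for Gata2, Nfe2, Gfi1b and Tal1, and below them for Klf1.

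Between the paHSC fractions, 5 of the 10 genes were separated, with no overlap of the 3 Selp_high and the 3 Selp_low libraries. Gata2, Nfe2, Gfi1b and Tal1 were higher in every Selp_high library, 4 of 10, against 10.3% of the 20370 genes tested. Klf1 was lower in every Selp_high library, 1 of 10, against 10.7% of all genes. By edgeR's quasi-likelihood test with Benjamini-Hochberg adjustment over all genes, with a call at an adjusted p of 0.05 or less and a log2 fold change of at least 1 in either direction, none of the 10 was called, against 0% of all genes. At an unadjusted p under 0.05 in edgeR, 3 of 10 were higher (Gata2, Tal1 and Gfi1b), against 6.88% of all genes, and 1 of 10 was lower (Klf1), against 5.67%. DESeq2, the tool of the study, called Klf1 alone, against 2.28% of all genes. The median log2 fold change of the 10 genes was 0.47, against -0.11 over all genes tested.

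Klf1, the erythroid factor (chr8:85628557-85631924, + strand, mm39), showed the largest difference of the 10. It had 64.1, 95.8 and 118 CPM in Selp_low paHSCs and 23.1, 20.3 and 38.1 CPM in Selp_high paHSCs. Every Selp_high library was below the lowest Selp_low library. The log2 fold change was -1.78 (SE 0.36), 3.43-fold lower in Selp_high paHSCs, with an edgeR adjusted p of 0.338 and a DESeq2 adjusted p of 0.0191. The DESeq2 call was lost without the second Selp_low library (adjusted p 0.154) and without the first Selp_high library (adjusted p 0.0760). Without Selp_low libraries 2 and 3 together the edgeR log2 fold change was -1.23 and Klf1 was not called by DESeq2 (adjusted p 0.608).

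Gata2, the GATA factor of stem and progenitor cells (chr6:88170873-88184014, + strand, mm39), had 148, 189.7 and 232 CPM in Selp_low paHSCs and 409, 449.9 and 409 CPM in Selp_high paHSCs. The Selp_high libraries lay close together, with an SD of 23.7 CPM around 423 CPM, and well above the Selp_low libraries at 189.6 ± 42.1 CPM. This was a log2 fold change of 1.15 (SE 0.27), 2.22-fold higher, with an edgeR adjusted p of 0.338 and a DESeq2 adjusted p of 0.114. DESeq2 without Selp_low library 3 called it (adjusted p 0.0138). Without Selp_low libraries 2 and 3 the edgeR log2 fold change was 1.53.

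Tal1, the E-box factor (chr4:114913623-114928952, + strand, mm39), had 15.5, 27.3 and 30.0 CPM in Selp_low paHSCs and 35.4, 81.8 and 57.4 CPM in Selp_high paHSCs. The groups did not overlap, although the lowest Selp_high library was near the highest Selp_low library. Its log2 fold change was 1.26 (SE 0.40), with an edgeR adjusted p of 0.338 and a DESeq2 adjusted p of 0.206. Gfi1b, the repressor (chr2:28499462-28511994, - strand, mm39), had 112, 143 and 139 CPM in Selp_low paHSCs and 253, 232 and 179 CPM in Selp_high paHSCs. Its log2 fold change was 0.75 (SE 0.25), with an edgeR adjusted p of 0.339. Nfe2, the platelet-release factor (chr15:103156639-103166830, - strand, mm39), had 514, 294 and 594 CPM in Selp_low paHSCs and 1173, 779 and 613 CPM in Selp_high paHSCs. The libraries numbered 3 were close for Nfe2, and the log2 fold change of 0.86 (SE 0.40) had an edgeR adjusted p of 0.433. Without Selp_low libraries 2 and 3 the edgeR log2 fold changes were 1.91 for Tal1, 0.99 for Gfi1b and 0.75 for Nfe2.

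The other 5 genes overlapped between the paHSC fractions. Zfpm1, the GATA1 cofactor (chr8:123008880-123063990, + strand, mm39), had 20.5, 84.0 and 122 CPM in Selp_low paHSCs and 56.8, 185 and 209 CPM in Selp_high paHSCs. The spread within each group was wide, and the log2 fold change of 0.99 (SE 0.71) had an edgeR adjusted p of 0.604. It was 0.54 without the first Selp_low library, 1.52 without library 3 and 2.88 without Selp_low libraries 2 and 3. Library 1 was the lowest for Zfpm1 in both fractions, and library 1 of Selp_high over library 1 of Selp_low was 1.47 (log2). Gata1 (chrX:7825499-7844310, - strand, mm39) varied more within the groups than between them, with 40.4, 134 and 145 CPM in Selp_low paHSCs and 26.0, 198 and 127 CPM in Selp_high paHSCs. In both fractions the first library was far below the other two. Its log2 fold change was 0.14 (SE 0.75), and it was -0.27 without the first Selp_low library -0.48 without the second Selp_high library and 1.54 without Selp_low libraries 2 and 3. Fli1, the megakaryocytic ETS factor (chr9:32333500-32454157, - strand, mm39), had 186, 192 and 220.0 CPM in Selp_low paHSCs and 139.5, 302 and 249.6 CPM in Selp_high paHSCs, a log2 fold change of 0.20 (SE 0.33), or 0.31 without Selp_low libraries 2 and 3. Runx1 (chr16:92398354-92623037, - strand, mm39) was the steadiest of the 10, with 53.6 to 81.2 CPM over all 9 libraries and a log2 fold change of -0.05 (SE 0.24), or 0.040 without those libraries.

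Lyl1, the relative of Tal1 (chr8:85428078-85431569, + strand, mm39), had 4.28 to 21.4 CPM and a log2 fold change of 0.20 (SE 0.43) between the fractions, which was 0.83 without Selp_low libraries 2 and 3. The gene Nfix, on the opposite strand, overlaps it and had 1451 counts per library on average, 351% of the counts of Lyl1. The strand setting of the counting is not given in the sources used here, so reads of Nfix and of Lyl1 cannot be told apart where they overlap, and the level of Lyl1 is uncertain. The rows that overlap Fli1 and Runx1 each held less than 1% of their counts (at most 0.976%).

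**Figure D2:**
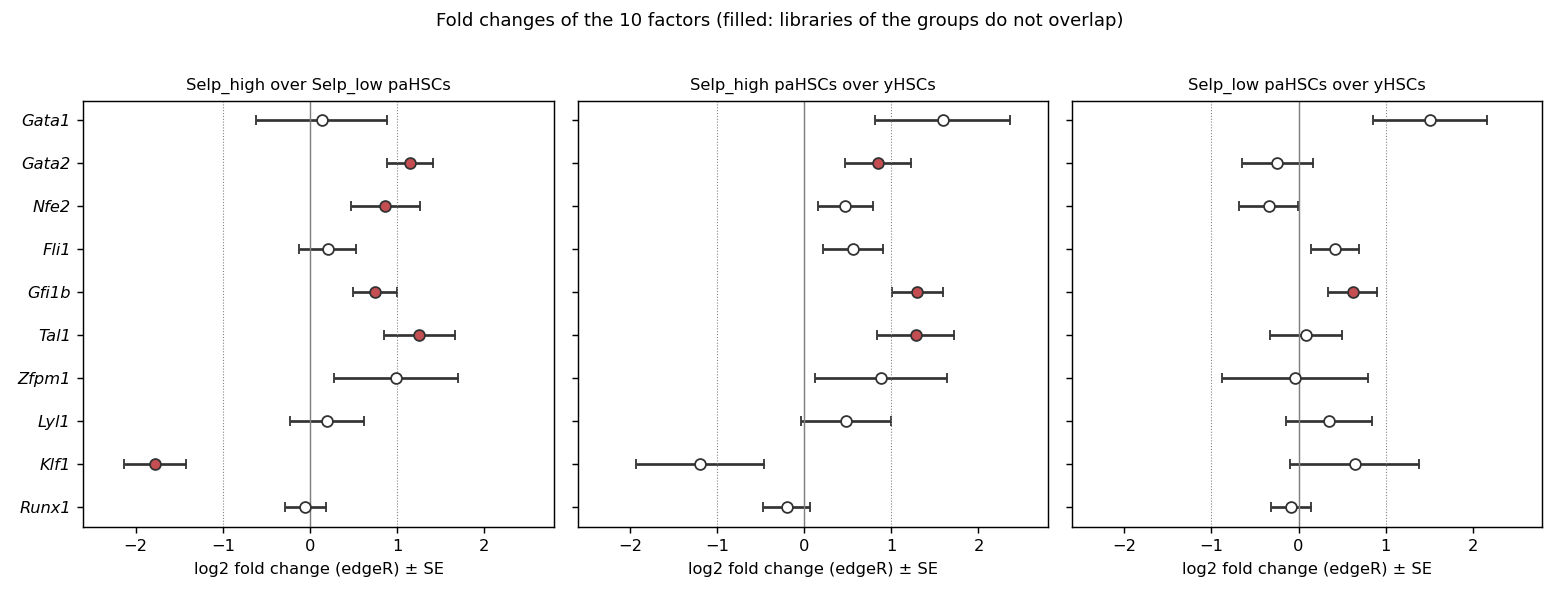
Log2 fold changes of the 10 genes from edgeR in the 3 comparisons, with bars of 1 standard error. Dotted lines mark the minimum of 1 in either direction, and filled points are genes whose libraries do not overlap between the groups. Klf1 lies at -1.78 and Gata2 and Tal1 at 1.15 and 1.26 between the paHSC fractions.

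Libraries of the paHSC fractions with the same replicate number deviated together across genes, with correlations of 0.199, 0.320 and 0.325. The libraries with the fewest genes detected, Selp_high library 1 and yHSC library 2, correlated more (0.450) and cannot be a pair. The labels name no pairing. A pairing is thus assumed and not shown, and differences within the 3 same-number pairs were taken on that basis. Gata2, Nfe2, Gfi1b, Tal1 and Zfpm1 were higher in the Selp_high library of all 3 pairs, 5 of 10, against 21.6% of all genes. Klf1 was lower in all 3 pairs, 1 of 10, against 24.5% of all genes. The within-pair differences were 1.47, 1.25 and 0.82 (log2) for Gata2, 1.19, 1.58 and 0.93 for Tal1, 1.47, 1.14 and 0.77 for Zfpm1, and -1.47, -2.24 and -1.64 for Klf1. They were less even for Nfe2, at 1.19, 1.41 and 0.044, and for Gfi1b, at 1.17, 0.70 and 0.36. When the replicate number entered DESeq2 as a block, 4 of the 10 genes were called, against 9.45% of all genes: Gata2 (adjusted p 9.68e-04), Tal1 (0.00129) and Zfpm1 (0.00304) were higher and Klf1 (9.82e-07) was lower in Selp_high paHSCs. Gfi1b (0.0852) and Nfe2 (0.0784) did not pass in that fit. With the same block edgeR called none of the 10 and 9 genes in all, so the calls rest on DESeq2 and on the assumed pairing.

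Promoters of the separated genes are shown, the genes whose libraries did not overlap between the paHSC fractions. RefSeq windows on the GRCm38.p6 build, which is older than the build of the counts, were found for 8 of the 10 genes and not for Nfe2 and Fli1. Each run below is the 250 bases before a start given by RefSeq, 5′ to 3′ on the strand of the gene. Capitals mark GATAA, letters bound by GATA factors, or CCACCC, a form of the CACCC sequences bound by KLF1, on either strand. Other CACCC sequences in the windows are not marked. The runs are Gata2 (chr6:88193641-88193890, +), Gfi1b (chr2:28621983-28622232, -), the more upstream of the 2 windows of Tal1 (chr4:115056176-115056425, +), whose start was not matched to a transcript in the annotation used, and Klf1 (chr8:84901732-84901981, +).
Gata2: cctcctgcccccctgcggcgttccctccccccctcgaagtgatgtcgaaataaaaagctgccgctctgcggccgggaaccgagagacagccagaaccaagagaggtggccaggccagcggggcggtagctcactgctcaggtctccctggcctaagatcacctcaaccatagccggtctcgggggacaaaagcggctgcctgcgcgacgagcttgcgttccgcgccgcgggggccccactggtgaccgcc
Gfi1b: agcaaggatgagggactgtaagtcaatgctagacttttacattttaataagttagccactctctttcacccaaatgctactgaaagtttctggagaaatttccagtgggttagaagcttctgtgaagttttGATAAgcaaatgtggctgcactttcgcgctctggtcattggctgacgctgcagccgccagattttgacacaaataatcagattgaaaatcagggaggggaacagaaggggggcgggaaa
Tal1: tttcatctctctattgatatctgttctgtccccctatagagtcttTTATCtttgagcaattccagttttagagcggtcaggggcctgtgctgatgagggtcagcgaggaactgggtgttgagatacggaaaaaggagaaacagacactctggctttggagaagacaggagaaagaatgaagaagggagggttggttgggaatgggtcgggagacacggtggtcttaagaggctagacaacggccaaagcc
Klf1: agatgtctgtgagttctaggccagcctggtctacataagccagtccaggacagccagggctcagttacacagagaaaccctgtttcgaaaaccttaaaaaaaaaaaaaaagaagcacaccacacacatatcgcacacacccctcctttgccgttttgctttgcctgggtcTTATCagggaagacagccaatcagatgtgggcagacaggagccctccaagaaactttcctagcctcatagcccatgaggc
GATAA, searched on both strands, occurred in the Gfi1b window at position -119 counted back from the start, in the Tal1 window at -205 and in the Klf1 window at -80, the last 2 as TTATC on the printed strand. The letters were not in the Gata2 window printed. The other window of Tal1, whose start did match a transcript, did not hold these letters. Counting any window of a gene, GATAA was in 3 of the 8 genes, 1 of them Tal1, beside 22.6% of all 32851 windows of this length. The other motif in capitals, CCACCC, was in the windows of Gata1, Lyl1 and Zfpm1, 3 of the 8, beside 28.1% of windows. The E-box CANNTG of TAL1 and LYL1 was in 5 of the 8 genes against 66.2% of windows, TGTGGT of RUNX1 in 1 against 14% (Klf1), CCGGAA of ETS factors in 2 against 12% (Lyl1 and Runx1) and TGANTCA of NFE2 in 0 against 6.75%. A gene with more than 1 window counted once. These matches describe the letters and no binding was measured here.

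Against yHSCs, Selp_high paHSCs had higher levels of 8 of the 10 genes, the median log2 fold change being 0.70 against -0.03 over all genes tested. Gata2, Gfi1b and Tal1 were above the young cells in every library, 3 of 10, against 8.53% of the 20017 genes tested, and none was below in every library, against 5.28%. The edgeR test called none of the 10, against 0.165% of all genes. At an unadjusted p under 0.05, 2 were higher (Gfi1b and Tal1), against 4.48% of all genes, and 0 were lower, against 3.11%. DESeq2 called Gfi1b alone, against 2.78% of all genes.

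Gfi1b had 112, 80.2 and 70.2 CPM in yHSCs against 253, 232 and 179 CPM in Selp_high paHSCs, with the Selp_low libraries in between at 112, 143 and 139 CPM. The 3 groups were ordered without overlap in TMM-scaled CPM, the lowest Selp_low library lying just above the highest young one. Over library totals, without TMM factors, this pair of libraries changed order. Selp_low library 1 held 3417 counts of Gfi1b in a total of 28064805, and yHSC library 1 held 3301 in 24866975. The log2 fold change of Selp_high paHSCs over yHSCs was 1.30 (SE 0.30), with an edgeR adjusted p of 0.221 and a DESeq2 adjusted p of 0.0311. Leaving out yHSC library 2 or 3, or Selp_high library 1 or 2, ended the DESeq2 call, with adjusted p of 0.276, 0.257, 0.124 and 0.110. Tal1 had 12.2, 26.1 and 33.1 CPM in yHSCs, a log2 fold change of 1.28 (SE 0.45) and an edgeR adjusted p of 0.506, and DESeq2 called it without the first Selp_high library (adjusted p 0.0481). Gata2 had 108, 264 and 329 CPM in yHSCs, a log2 fold change of 0.84 (SE 0.38) and an edgeR adjusted p of 0.695.

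Gata1, the factor of maturing erythroid and megakaryocytic cells, had 68.0, 22.9 and 21.6 CPM in yHSCs and was higher on average in both paHSC fractions. The log2 fold change was 1.59 (SE 0.77) in Selp_high and 1.51 (SE 0.66) in Selp_low paHSCs, with edgeR adjusted p of 0.744 and 0.457. The groups overlapped in both comparisons, because the first yHSC library was high and the first library of each paHSC fraction was low. Without the first yHSC library DESeq2 called Gata1 in both fractions, with log2 fold changes of 2.42 and 2.31 and adjusted p of 0.0172 and 0.0102. Without the second Selp_high library the value in Selp_high paHSCs dropped to 0.89 in DESeq2 and 0.95 in edgeR, and neither was called. Without Selp_low libraries 2 and 3 the edgeR log2 fold change of Selp_low paHSCs over yHSCs was 0.01. The 2 comparisons share the yHSC libraries.

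Klf1 had 130.7, 25.8 and 20.8 CPM in yHSCs, so 1 young library was above every library of the paHSC fractions and the others were near the Selp_high level. The log2 fold change was -1.20 (SE 0.73) in Selp_high paHSCs and 0.64 (SE 0.74) in Selp_low paHSCs, with edgeR adjusted p of 0.863 and 0.874. Without the first yHSC library the edgeR values were 0.20 and 2.00. DESeq2 then called Klf1 in Selp_low paHSCs (log2 fold change 2.04, adjusted p 0.00120). From Selp_low library 1 alone, with every yHSC library kept, the edgeR log2 fold change of Klf1 over yHSCs was 0.032. The first yHSC library also had the highest sum of the erythroid genes, at 7512 CPM against 2915 and 2688 CPM in the other young libraries. It held 65118 CPM of the neutrophil genes, against 12808 and 18381 CPM.

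In Selp_low paHSCs, 6 of the 10 genes were higher and 4 lower than in yHSCs, and the median log2 fold change was 0.22 against 0.08 over all genes tested. By TMM-scaled CPM, but not over library totals, Gfi1b was above the young cells in every Selp_low library. This was 1 of 10, against 9.59% of the 20437 genes tested. For Gfi1b the log2 fold change was 0.62 (SE 0.28), or 0.25 in edgeR without Selp_low libraries 2 and 3. None of the 10 was below in every library, against 6.76%. No gene of the 10 was called by edgeR or DESeq2, against 0% and 2.95% of all genes. None had an unadjusted edgeR p under 0.05, against 7.11% of all genes higher and 4.17% lower. For Gata2 the log2 fold change was -0.24 (SE 0.41), for Nfe2 -0.34 (SE 0.34), for Tal1 0.09 (SE 0.42) and for Zfpm1 -0.04 (SE 0.84).

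In all 3 groups the library numbered 1 was the lowest for Tal1, Zfpm1 and Lyl1. For Zfpm1 these libraries had 14.7, 20.5 and 56.8 CPM, against 84.0 to 209 CPM in the other 6.

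Ratios within a library do not depend on how the libraries are scaled, and were taken as the log2 ratio of counts per length, with 0.5 added to each count. The 12 comparisons of 4 ratios were tested by a 2-sided exact permutation test, whose smallest possible p with 3 against 3 libraries is 0.1. Fli1 to Klf1, the megakaryocytic over the erythroid factor, was 1.41, 2.71 and 1.53 in Selp_high paHSCs and 0.35, -0.18 and -0.29 in Selp_low paHSCs. All Selp_high libraries had at least 2.65 times as much Fli1 as Klf1 per length, while the Selp_low libraries had 0.82 to 1.28 times. The difference from Selp_low library 1 alone was 1.53. The difference of 1.92 over all libraries reached the smallest p (exact permutation p 0.1, adjusted 0.4), and the young libraries, at -1.07, 0.97 and 2.12, overlapped both fractions. Gfi1b to its relative Gfi1, a repressor needed in granulocyte and lymphoid development, was 4.39, 4.71 and 3.39 in Selp_high paHSCs and 2.24, 1.73 and 0.68 in yHSCs. The groups did not overlap, and the difference of 2.61 also had the smallest exact permutation p of 0.1 (adjusted 0.4).

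Gata1 to Spi1, the gene of the myeloid and B-cell factor PU.1, was -1.82, 0.49 and -1.53 in Selp_low paHSCs and -1.83, -3.55 and -3.72 in yHSCs, a difference of 2.08 (exact permutation p 0.1, adjusted 0.4) although the nearest libraries of the groups were almost equal. It was 1.22 without Selp_low libraries 2 and 3. In Selp_high paHSCs it was -2.42, 1.41 and -0.77 and overlapped both groups. Gata1 to Gata2 overlapped in all 3 comparisons, with means of -1.56 ± 1.78 in yHSCs, 0.13 ± 0.74 in Selp_low paHSCs and -1.13 ± 1.49 in Selp_high paHSCs (SD, n = 3). The ratio passed from below to above 0 within the young group and within the Selp_low group, so no order of these factors held for either. With Selp_low library 1 alone the differences were -0.41 between the fractions and 0.84 from yHSCs.

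**Figure D3:**
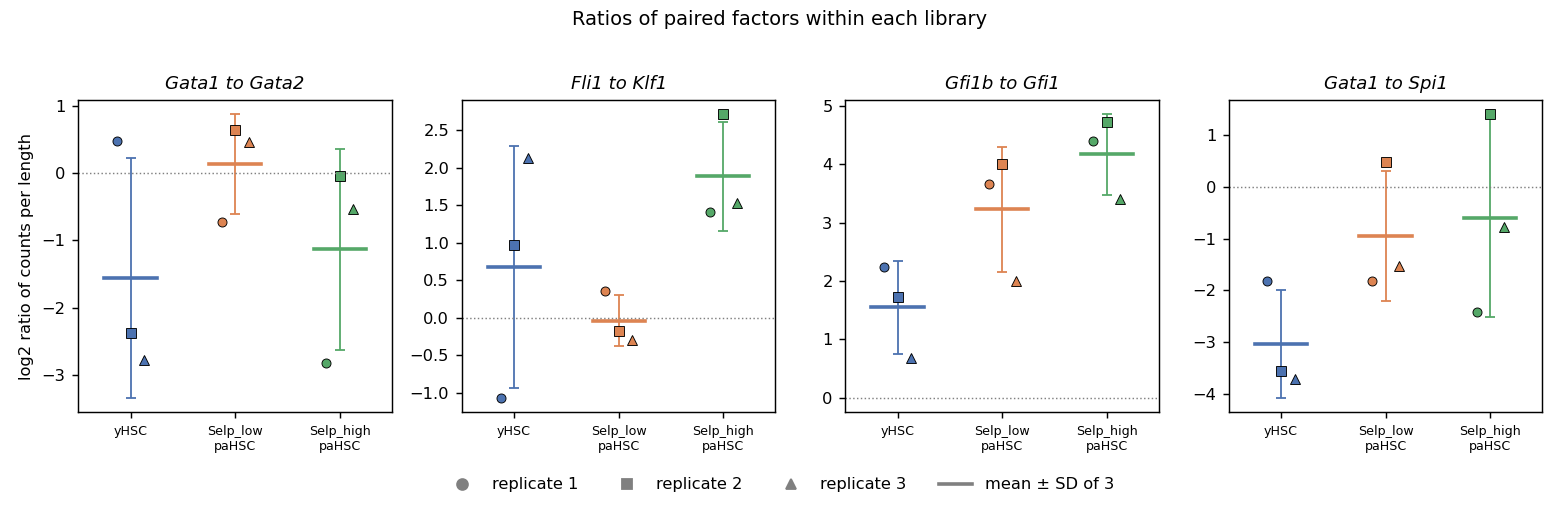
Log2 ratios of counts per length within each library for 4 pairs of factors, with the mean and SD of 3 libraries per group and a dotted line at equal amounts. Fli1 to Klf1 lies at 1.41 or higher in every Selp_high library and at 0.35 or lower in every Selp_low library.

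The 23 cofactors and partners of these factors, among them Lmo2, which bridges TAL1 and GATA factors, and was the most abundant, were all tested and none was called by edgeR or DESeq2 between the paHSC fractions. Of them, 17 were higher and 6 lower in Selp_high paHSCs, and the median log2 fold change was 0.21, where 44.8% of all genes were higher. At an unadjusted edgeR p under 0.05, 3 were higher and 1 was lower, against 6.88% and 5.67% of all genes. Set against Selp_low library 1 alone, 19 were higher and 4 lower, with a median of 0.54. The largest differences were in Cbfa2t3, a corepressor that joins TAL1 complexes (1.24, SE 0.43), Mta1, a subunit of the NuRD repressor complex (1.03, SE 0.73), Ep300, an acetyltransferase coactivator (-0.95, SE 0.38), and Meis1, a homeodomain factor of HSCs and megakaryocytes (0.91, SE 0.32). Meis1 was higher and Ep300 lower in every Selp_high library, while Cbfa2t3 and Mta1 overlapped. In the DESeq2 fit with the block, Cbfa2t3 alone of the list was called (adjusted p 0.00170), against 9.45% of all genes. Cofactors were lower in Selp_low paHSCs than in yHSCs for 20 of 23 genes, with a median of -0.33, where 44.9% of all genes were lower and their median was 0.08. From Selp_low library 1 alone, 1 was higher and 22 were lower than in yHSCs, with a median of -0.86. The HSC markers, given above, were also lower in this comparison, and their part in it was not tested. In all Selp_low libraries, 3 of the 23 were below every young library, against 6.76% of all genes, and 0 were above, against 9.59%. Among the 3 was Meis1 (log2 fold change -1.11, SE 0.34).

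Of 11 relatives from the same gene families, 8 passed the filter, and Nfe2l3, Tal2 and Zfpm2 did not. Between the paHSC fractions 2 were higher and 6 lower, with a median of -0.15, which was 0.13 without Selp_low libraries 2 and 3, and none was called by edgeR or DESeq2, with or without the block. The largest differences were in Runx3 (-0.72, SE 0.77), Spi1 (-0.61, SE 0.63), Gfi1 (-0.47, SE 0.60) and Gata3 (-0.23, SE 0.66), each smaller than its error. Against yHSCs, Gfi1 had 41.2, 42.0 and 76.3 CPM in young and 21.0, 15.4 and 29.6 CPM in Selp_high libraries. It was lower in every Selp_high library, with a log2 fold change of -1.29 (SE 0.35), an edgeR adjusted p of 0.332 and a DESeq2 adjusted p of 0.0352. Runx2, the Runt factor of bone and the largest change of the list, named after its values were seen, had 54.1 ± 23.8 CPM (SD, n = 3) in yHSCs, 14.7 ± 1.56 CPM in Selp_low and 14.1 ± 3.57 CPM in Selp_high paHSCs. It was below every young library in both fractions, with log2 fold changes of -1.97 (SE 0.42) in Selp_high and -1.82 (SE 0.37) in Selp_low paHSCs, edgeR adjusted p of 0.190 and 0.332 and DESeq2 adjusted p of 9.3e-04 and 0.0128. In Selp_low paHSCs without libraries 2 and 3 the DESeq2 adjusted p was 0.153. DESeq2 thus called 2 of the 8 relatives lower in Selp_high paHSCs over yHSCs and 1 in Selp_low paHSCs over yHSCs, against 2.78% and 2.95% of all genes. Spi1 was also below every young library in Selp_high paHSCs (-0.92, SE 0.37), with an edgeR adjusted p of 0.622.

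Of 23 genes of megakaryocytes and platelets, many of them targets of these factors, 22 passed the filter, and Gp1bb did not. All 22 were higher in Selp_high than in Selp_low paHSCs, 13 of them without overlap, and their median log2 fold change was 1.99, beside 0.47 for the 10 factors. Of all 20370 genes tested, 9120 were higher and 11250 lower. The share of all genes without overlap in this direction was 10.3%. None was called by edgeR and 15 were higher at an unadjusted p under 0.05, against 6.88% of all genes. DESeq2 called 9 and DESeq2 with the block 18, against 2.28% and 9.45% of all genes. When Selp_low libraries 2 and 3 were left out all 23 were tested and higher, with a median of 3.12. Library 1 had the lowest sum of this list in each group, so fraction and library number cannot be told apart in that value. Tubb1, the platelet beta-tubulin, had 1.51, 10.6 and 1.61 CPM in Selp_low paHSCs and 207, 1072 and 14.7 CPM in Selp_high paHSCs. The second Selp_high library was the highest and library 3 was close to the Selp_low range. For Tubb1 the log2 fold change was 6.56 (SE 1.73), and it was 5.58 (SE 1.58) for Gp6, the platelet collagen receptor, 5.40 (SE 1.60) for Myl9, a myosin light chain, and 4.42 (SE 1.21) for Ppbp, a platelet granule chemokine. The summed level of the list was 5628, 13720 and 7862 CPM in Selp_high paHSCs, 1327, 2559 and 4323 CPM in Selp_low paHSCs and 1329, 2072 and 1935 CPM in yHSCs.

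Against yHSCs all 22 were higher in Selp_high paHSCs, with a median of 3.61, and edgeR called 2 of them, against 0.165% of all genes. These were Vwf, the adhesive protein of platelets, at 3.99 (SE 0.49, edgeR adjusted p 0.0401), and Mmrn1, multimerin of platelet granules, at 2.19 (SE 0.23, edgeR adjusted p 0.0251), named after their values were seen. In Selp_low paHSCs 15 of 22 were higher and 7 lower than in yHSCs, with a median of 1.26, and edgeR called none and DESeq2 called 5, against 2.95% of all genes. From Selp_low library 1 alone, 10 were higher and 12 lower, the median was -0.44 and DESeq2 called none. The sort was on P-selectin, which megakaryocytes and platelets also carry, and its part in these differences was not tested.

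Of 30 erythroid genes, 29 were in the table and 28 passed the filter, and Icam4 was at 0 in all 9 libraries. Between the paHSC fractions 10 were higher and 18 lower in Selp_high paHSCs, with a median of -0.50 beside -0.11 over all genes, of which 55.2% were lower. No gene was called by edgeR, 1 was higher and 3 were lower at an unadjusted p under 0.05, against 6.88% and 5.67% of all genes, and DESeq2 called 2 lower, against 2.28% called in either direction. Against Selp_low library 1 alone, 3 were higher and 25 lower, with a median of -0.63, and DESeq2 no longer called Car1 or Tspo2 (adjusted p 0.988 and 0.920). Car1, an erythroid carbonic anhydrase, had 237, 1170 and 927 CPM in Selp_low paHSCs and 33.9, 173 and 198 CPM in Selp_high paHSCs, without overlap. Its log2 fold change was -2.53 (SE 0.82, DESeq2 adjusted p 0.0386), beside -1.99 (SE 0.57) for Ermap, an erythroid membrane protein, -1.92 (SE 0.47, DESeq2 adjusted p 0.0315) for Tspo2, an erythroid relative of the translocator protein, and -1.81 (SE 0.83) for Cldn13, a claudin of erythroid cells. With the block DESeq2 called 8 lower and 1 higher, against 9.45% of all genes, the latter being Tfr2, a transferrin receptor that was above every Selp_low library in Selp_high paHSCs (1.34, SE 0.36), named after its values were seen. The summed level of the list, led by Car2, was 4918, 2654 and 4236 CPM in Selp_high and 6566, 2997 and 5066 CPM in Selp_low paHSCs, and these sums overlapped. In Selp_high paHSCs over yHSCs, 6 of the 28 were higher and 22 lower, with a median of -0.27, and in Selp_low paHSCs over yHSCs 16 were higher and 12 lower, with a median of 0.10. From Selp_low library 1 alone, 16 were higher and 12 lower than in yHSCs, with a median of 0.087.

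**Figure D4:**
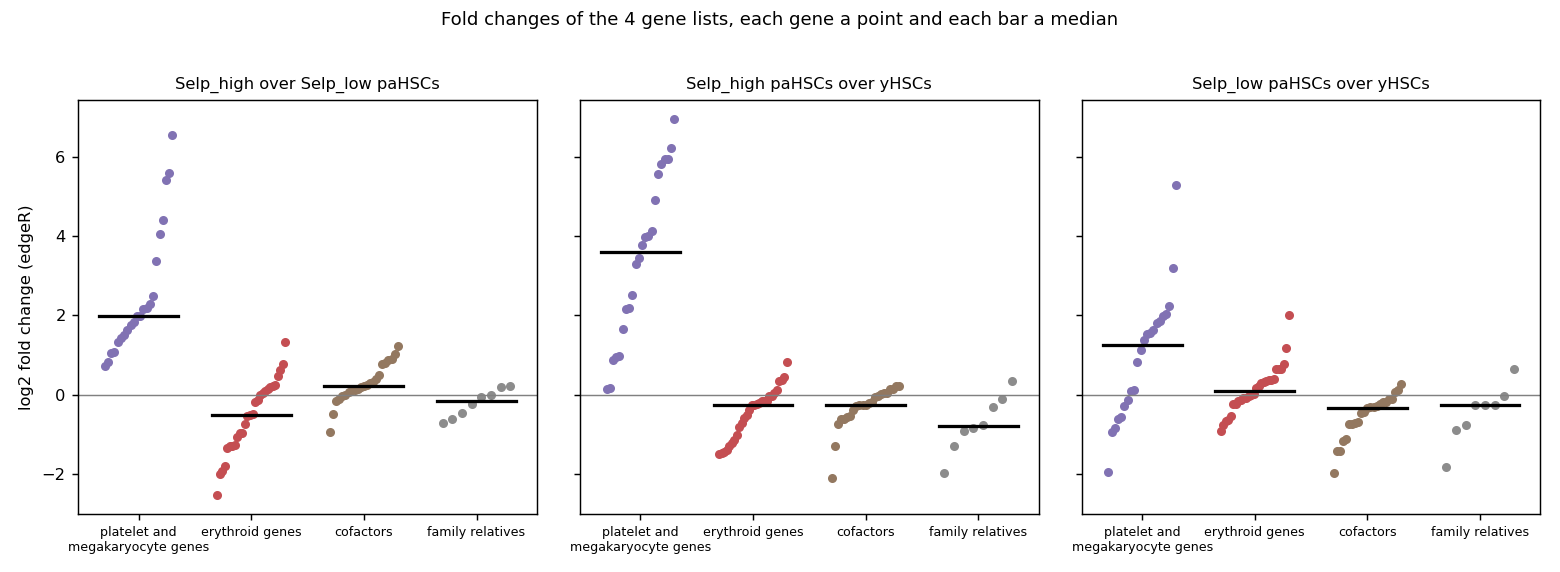
Log2 fold changes from edgeR for the genes of 4 lists in the 3 comparisons, each point a gene, sorted by value within a list, and each bar the median. The platelet and megakaryocyte genes have medians of 1.99 and 3.61 in Selp_high paHSCs over Selp_low paHSCs and over yHSCs, and the erythroid genes -0.50 and -0.27.

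Across the 9 libraries the 10 genes did not vary as one, as a description over points that share groups and scaling. Gata2, Tal1, Zfpm1 and Lyl1 varied together, with Pearson r of 0.92 for Gata2 and Tal1, 0.88 for Tal1 and Zfpm1 and 0.86 for Zfpm1 and Lyl1. Klf1 ran opposite to Gata2, with r of -0.81, and Gata1 was near 0 with Gata2 at 0.04 and at 0.71 with Fli1. Among 9856 genes with a mean of at least 10 CPM, those most like Gata1 were Cbx5 (r 0.94), Serpine2 (0.94) and Tuba8 (0.93). Those most like Gata2 were Itga5 (0.98), Gtf2h4 (0.98) and Mansc1 (0.97), and among those most like Fli1 were Rwdd4a (0.93) and St13 (0.92).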

How the data were processed

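Per the authors, reads were cleaned with fastp, aligned with HISAT2 2.2.1 and counted per gene with featureCounts 2.0.6 after SMARTer cDNA synthesis. The submitters' processing notes name the mm39 build and DESeq2 1.42.0. Neither the annotation release nor the strand setting is given. The deposited table held whole-number counts of reads per gene, and totals ran from 24866975 to 35375310. A count of 0 allows up to 3 counts, and this covers counting error only.

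Counts were tested with edgeR 4.0.16 (quasi-likelihood, TMM factors, filterByExpr) in R 4.3.3, 1 fit per pair of groups, with p adjusted over all genes tested. The tests were checked on simulated counts with 200 genes changed by 3 on the log2 scale. The condition to pass was set at a small fixed spread between replicates, so it does not show the power in these libraries. DESeq2 was an alternative. CPM and FPKM were computed from the TMM-scaled counts. The standard error of a log2 fold change is its size over the square root of F. Replicate numbers were taken to pair the paHSC fractions by the rule that every same-number correlation of deviations from the group means exceeded 0.1 (0.199, 0.320 and 0.325). The labels name no pairing. The members and lists were chosen with earlier results of these data known. Named genes were all 10 factors, Selp and HSC markers, Gfi1, Spi1, the most abundant gene of each marker list, at most 4 genes per list with the largest difference between the paHSC fractions, and the 3 genes most correlated with Gata1, Gata2 and Fli1. Of these, 1 gene is not reported here. Figures were drawn with matplotlib.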

Additional observations from a re-analysis of the deposited data

How the results depend on the processing

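Alternatives were RLE and upper-quartile factors, no filter or a mean of at least 10 counts, no minimum of the fold change, the newer quasi-likelihood setting, 1 fit of all 9 libraries, voom with quality weights, DESeq2, a replicate block and each library left out. DESeq2 with libraries left out and the fits without Selp_low libraries 2 and 3 were chosen after seeing the data. No edgeR setting called any of the 10 genes. DESeq2 called 1 between the paHSC fractions and 1 in Selp_high paHSCs over yHSCs, where voom also called 1 (Gfi1b, adjusted p 0.0260), and 0 to 2 in each comparison with 1 library left out. DESeq2 with the replicate block called 4 between the fractions. Selp_high libraries 1 and 2 correlated at 0.450 and 0.368 with yHSC libraries 2 and 1, above every same-number value of the fractions. Numbers did not pair the yHSC libraries, whose same-number correlations with paHSC libraries ran from -0.408 to 0.087, and not every library correlated best with its own number. There DESeq2 with the block called 3 (Gfi1b, Tal1 and Zfpm1) in Selp_high paHSCs over yHSCs and 0 in Selp_low paHSCs over yHSCs, of 641 and 417 genes in all. The block changed no other call of the 10 genes.

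Genes called in all depended on the setting, and the cause was not tested. In the order Selp_high over Selp_low paHSCs, Selp_high paHSCs over yHSCs and Selp_low paHSCs over yHSCs, edgeR called 0, 33 and 0, edgeR with no filter 193, 472 and 365, DESeq2 589, 596 and 517, and voom 0, 275 and 431. The edgeR block called 9, 0 and 0, the DESeq2 block 2151 between the fractions, and the newer setting 90 and the fit of 9 libraries 19 in Selp_high paHSCs over yHSCs. With 1 library left out edgeR called 0 to 50, 0 to 36 and 0 to 118, with 50 and 118 without Selp_low library 3, and it called 14 between the fractions without Selp_low libraries 2 and 3.

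Some directions turned, in differences that no edgeR fit called. Between the paHSC fractions Runx1 was at 0.0084 (log2) with no filter and 0.040 without Selp_low libraries 2 and 3, and Gata1 at -0.094 with the replicate block in edgeR and -0.099 in DESeq2. Klf1 in Selp_high paHSCs over yHSCs turned from -1.20 to 0.23 by voom. In Selp_low paHSCs over yHSCs Tal1 was at -0.031 with no filter, -0.39 by voom and -0.73 without Selp_low libraries 2 and 3, Lyl1 at -0.10 and -0.45 in the last 2, and Zfpm1 at 0.093 and 0.052 with the block in edgeR and DESeq2 and at -2.12 without those libraries. Without them the median of the relatives turned to 0.13 between the fractions, and that of the megakaryocyte and platelet genes to -0.44 in Selp_low paHSCs over yHSCs.

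With each library left out, log2 fold changes between the fractions ran from -0.48 to 0.61 for Gata1, -0.043 to 0.46 for Fli1, -0.19 to 0.43 for Lyl1 and -0.21 to 0.047 for Runx1. Klf1 in Selp_high paHSCs over yHSCs ran from -1.59 to 0.20. In Selp_low paHSCs over yHSCs they ran from -0.64 to 0.082 for Gata2, -0.28 to 0.39 for Tal1, -0.63 to 0.40 for Zfpm1, -0.080 to 0.65 for Lyl1 and -0.30 to 0.0089 for Runx1. Ratio differences ran from -0.18 to 1.45 for Gata1 to Gata2 in Selp_high paHSCs over yHSCs, -1.59 to 0.011 for Fli1 to Klf1 in Selp_low paHSCs over yHSCs and -0.64 to 1.27 for Gata1 to Spi1 between the fractions. With library totals in place of TMM, 8 of 10 genes kept their place by FPKM in Selp_low paHSCs and all 10 in the other groups. Depth limited Lyl1 most, with 126 counts in its lowest library.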
